A study of Homo sapiens with 80 samples.

Results

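The mitochondrial ribosomal protein genes were taken as all genes with a symbol made of MRPL or MRPS, a number and at most 1 further letter, and with a mean raw count of 20 or more over the 80 libraries of the series. This rule kept 77 of the 60663 genes with a usable record, 48 with MRPL and 29 with MRPS names, on 21 chromosomes. By the subunit that holds the protein, 50 belong to the large subunit, including MRPS18A and MRPS30, and 26 to the small subunit, while MRPS36 is no longer counted as a ribosomal protein. The name matched 78 genes. Besides their names, members were thus chosen by their mean raw counts. Just inside the minimum lay MRPS24 with a mean count of 62.05, MRPS17 with 227.6 and MRPL50 with 236.65, and the gene outside it was MRPL53 with 0.875.

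The mitochondrial ribosome translates the few messenger RNAs made inside the organelle, which encode core subunits of the respiratory chain and of the ATP synthase. Its ribosomal RNAs come from mitochondrial DNA, whereas all of its proteins are encoded in the nucleus, made in the cytosol and imported. Many of these proteins have a counterpart in the bacterial ribosome and others occur only in mitochondria, where they form much of the central protuberance, the mRNA entry side and the attachment to the inner membrane.

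Jurkat T cells, a human leukaemic T cell line (clone E6-1), were exposed to altered gravity without any genetic change or drug, and total RNA depleted of ribosomal RNA was sequenced. In the 9 g experiment, cells in pipettes were spun in a custom pipette centrifuge for 20 or 75 s (the groups hypg20s and hypg75s) or for 3, 5, 7, 9 or 15 min (hypg3 up to hypg15, named by their minutes) and compared with cells kept at 1 g for 15 min (Ctrl). Cells spun for 60 min (hypg60) were compared with cells kept at 1 g for 60 min (Ctrl60). The count table names the Ctrl60 columns, and not those of hypg60, with the word HEPES, a buffer, so a difference in medium between these groups and the 60 min at 9 g cannot be told apart. In the 300 g experiment, cells were spun for 5 min in a benchtop centrifuge and lysed 1 min (wait1min), 4 min (wait4min) or 15 min (wait15min) after the stop. These 3 groups, and cells heated for 5 min at 42 °C without centrifugation (heat), were compared with directly lysed cells at 1 g (Ctrl300g). Groups of the 9 g experiment had 6 libraries each and the other groups 4. All groups come from a single clonal line, nothing in the sources says that libraries of a group came from separate cultures, and p-values then measure the spread between these libraries, which may be technical. The 7 shorter 9 g groups share Ctrl, and the 3 waits and heat share Ctrl300g, so comparisons within either set are not independent of each other.

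Total counts lay between 22634465 and 41893490 per library, with a median of 30259450. Library 75, of the hypg15 group, held 17205655 counts with 26 members at 0 and was left out, so hypg15 had 5 libraries. All 9 T cell markers were found at 1 CPM (counts scaled to library size) or more in every group, as was 1 of 4 B cell markers, while the 4 monocyte and 4 erythroid markers stayed below it. The library numbers of hypg15 and hypg3 (69 to 80) lie apart from those of their control, so a difference from Ctrl and a difference between number ranges cannot be told apart for these 2 groups. Each other group also holds its own run of numbers, so order and treatment cannot be told apart there either. The 5 hypg15 libraries, at 22634465 to 26438639 counts, lay below the lowest Ctrl library at 27314458. In bulk RNA, fewer cells of a kind and less RNA per cell cannot be told apart.

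Levels are given as CPM after TMM scaling (trimmed mean of M values) over 79 libraries, as mean ± SD. Fold changes come from edgeR fits of 2 groups at a time, each scaled on its own libraries, so the ratio of printed levels can differ slightly from the fitted fold. A gene was called upregulated or downregulated at an adjusted p under 0.05, with the adjustment over all genes tested. All 77 members passed the count filter in every comparison, and the lowest mean count of any member in any group was 40.25 (MRPS24). Per kilobase of exon, the members spanned a wide range in Ctrl. The highest were MRPS34, a mitochondria-specific protein of the small subunit body, at 139 ± 7.06 CPM per kilobase, MRPL37 at 115 ± 9.04 and MRPL41 at 86.7 ± 5.70 (SD, n = 6). The lowest were MRPL46 at 2.04 ± 0.141, MRPL50 at 1.89 ± 0.261 and MRPS24 at 0.732 ± 0.116 CPM per kilobase. The ranges of MRPL46 and MRPL50 lie within their spread of each other, whereas MRPS24 lay apart. Reads over exons shared with a neighbouring gene may have been dropped in the authors' counting, whose handling of strands is not given here. Members with the largest shares of exon bases shared on the same strand were MRPL12 (69.5%), MRPL38 (41.1%), MRPS28 (35.8%), MRPL2 (29.2%), MRPS17 (25%), MRPS24 (23.2%, with URGCP-MRPS24), MRPL33 (21.1%) and MRPL19 (19.5%), and the share was 11.3% in MRPL46. Shares with a gene on the opposite strand reached 50.9% in MRPS18A and 40.2% in MRPS18C.

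**Figure D1:**
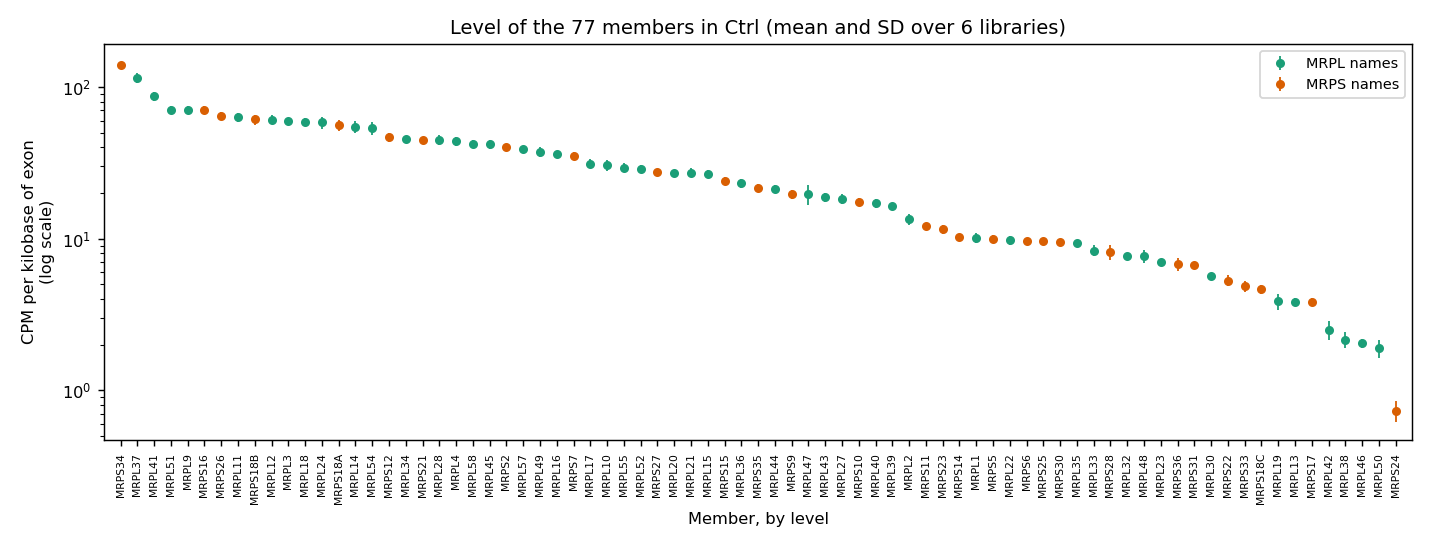
Level of the 77 members in Ctrl as CPM per kilobase of exon (y axis, log scale), ordered by level along the x axis, with points for the mean and lines for the SD of 6 libraries. Members with either name lie along the whole range, from MRPS34 at 139 down to MRPS24 at 0.732 CPM per kilobase.

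Promoter sequences are shown for 5 members that lead the results: MRPL1 and MRPS31, which fell at every 9 g time, MRPL38, 1 of the 3 members upregulated at 9 g, and MRPL41 and MRPL54, which had some of the deepest falls after 300 g. Each line holds the 120 bases before the transcription start, 5′ to 3′ on the gene's strand, from RefSeq (GRCh38.p14), with a match to a searched motif in capitals. The stretches are chr4:77862710-77862829 (plus strand) for MRPL1, chr13:40771191-40771310 (minus) for MRPS31, chr17:75904885-75905004 (minus) for MRPL38, chr9:137551759-137551878 (plus) for MRPL41 and chr19:3762562-3762681 (plus) for MRPL54. The RefSeq start of MRPL38 lies inside the gene as the count table bounds it, whose end is at 75905093, so its stretch is upstream of that start alone.
MRPL1: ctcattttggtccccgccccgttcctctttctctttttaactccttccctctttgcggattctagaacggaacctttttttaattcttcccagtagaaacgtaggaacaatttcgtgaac
MRPS31: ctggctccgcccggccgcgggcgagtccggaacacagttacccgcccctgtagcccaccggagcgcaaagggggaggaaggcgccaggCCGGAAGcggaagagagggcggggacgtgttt
MRPL38: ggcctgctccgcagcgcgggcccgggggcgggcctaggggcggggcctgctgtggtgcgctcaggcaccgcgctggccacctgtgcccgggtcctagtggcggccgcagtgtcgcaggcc
MRPL41: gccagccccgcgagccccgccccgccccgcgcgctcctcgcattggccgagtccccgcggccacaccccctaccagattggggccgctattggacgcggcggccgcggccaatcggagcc
MRPL54: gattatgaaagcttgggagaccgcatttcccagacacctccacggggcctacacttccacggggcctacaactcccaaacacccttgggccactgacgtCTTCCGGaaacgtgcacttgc
The capitals mark the letters bound by the ETS factor GABP, CCGGAAG, which begin 32 bases before the start in MRPS31 and, on the other strand, 21 bases before it in MRPL54. GC content of these stretches was 43.3% in MRPL1, 71.7% in MRPS31, 80% in MRPL38, 78.3% in MRPL41 and 57.5% in MRPL54.

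Promoter entries matched 68 of the 77 members, and those of MRPL10, MRPL13, MRPL15, MRPL2, MRPL21, MRPL23, MRPL35, MRPS28 and MRPS36 were not used here. The letters CCGGAAG were found on either strand within 250 bases before to 50 after the start in 28 of the 68 (41.2%), compared with 10.3% of all 35116 promoters. YY1 letters (AAGATGGCG) were found in 13 members (19.1%), compared with 1.75% of all promoters. The last 3 letters of the GABP motif are the first of the YY1 motif, so both can match in overlap. The NRF1 motif was found in 1 member (1.47%) and in 1.24% of all promoters. Members count with 1 entry each and passed a count minimum. All promoters count every entry, without a limit on level, so the sets compared are unlike. Among members upregulated at all 3 waits after 300 g, 3 of 13 promoters held CCGGAAG and 4 held the YY1 letters, and among those downregulated at all 3 waits, 18 of 47 and 7 of 47 did. These matches describe letters in a window and were not tested as binding sites.

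At 9 g, mitochondrial ribosomal protein genes were downregulated more often than all genes tested, and at most 3 were upregulated in any comparison, or 8 in a fit with a smooth curve of counts against GC content removed from each library (the GC curve). After 20 s, 16 of the 77 members fell and 0 rose, compared with 8.58% and 6.66% of all genes tested. After 75 s, 36 fell and 1 rose, against 14.4% and 16.8% of all genes (31.3% in either direction). After 3 min, 40 fell and 1 rose, against 24.4% and 16.9%. After 5 min, 9 fell and 0 rose, against 1.69% and 4.33% (6.02% in either direction). After 7 min, 30 fell and 1 rose, against 6.19% and 6.64%. After 9 min, 42 fell and 2 rose, against 8.34% and 11.3%. After 15 min, 36 fell and 3 rose, against 27.9% and 25.4%. After 60 min, compared with Ctrl60, 40 fell and 1 rose, against 13.0% and 17.1% (30.1% in either direction). In each of the 8 comparisons, the share of members that fell (11.7% to 54.5%) was above the share of all genes that fell. No test over the list was made, since its members were chosen with earlier results of these data known.

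Changes of the whole group were small. The median log2 fold change of the members was -0.02 after 20 s, -0.10 after 75 s, -0.13 after 3 min, -0.12 after 5 min, -0.15 after 7 min, -0.16 after 9 min, -0.09 after 15 min and -0.21 after 60 min, while that of all genes stayed between -0.02 and 0.02. With 3 surrogate variables as covariates it was -0.065 after 7 min, -0.045 after 9 min and -0.10 after 60 min, and with library 75 kept it was -0.22 after 15 min. The summed level of the 77 members was 5009 ± 248 CPM in Ctrl (SD, n = 6), 4515 ± 88.4 CPM in hypg9 and 4405 ± 292 CPM in hypg60, beside 5052 ± 228 CPM in Ctrl60. Between Ctrl60 and Ctrl, none of the 77 members was called by edgeR or by DESeq2, none had an unadjusted p under 0.05, and 0.0124% of all genes were called, 0.00621% up and 0.00621% down. With 3 surrogate variables as covariates, fewer members were called at 7 of the 8 times, with 0 up at any time. In that fit 9 members fell after 7 min, 2 after 9 min and 6 after 15 min, against 2.29%, 1.14% and 0.647% of all genes, while 9 fell after 5 min in both fits. The 2 after 9 min are 2.60% of the members, beside 54.5% without the covariates.

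**Figure D2:**
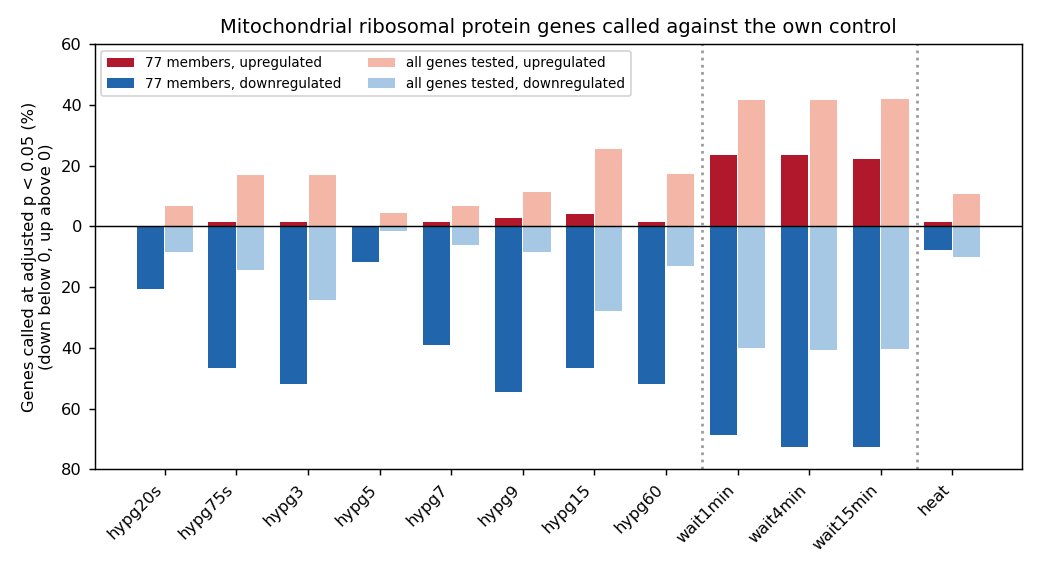
Share of genes called (y axis, percent, downregulated below 0 and upregulated above) in each treated group against its own control (x axis), dark bars for the 77 members and pale bars for all genes tested. At every 9 g time the dark bar below 0 is longer than the pale one, from 11.7% after 5 min to 54.5% after 9 min.

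Over the 8 comparisons at 9 g, 56 members (72.7%) were downregulated at least once, 30 (39.0%) in 5 or more, 13 (16.9%) in at least 7, and 3 (3.90%) in all 8. Of the 15638 genes tested in all 8, the same held for 37.6%, 6.70%, 1.59% and 0.486%. Those 3 were MRPL1, MRPS31 and MRPS9. With 3 surrogate variables, MRPS31 was called at 7 of the 8 times, MRPL1 at 4 and MRPS9 at 1, after 60 min. 21 members fell in none and 18 were called in none. Members of both subunits fell, with 26 of 50 in the large and 13 of 26 in the small subunit down after 3 min, and 23 of 50 and 16 of 26 after 60 min.

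MRPL1, the protein of the L1 stalk of the large subunit that contacts tRNA leaving the ribosome (ENSG00000169288, chromosome 4, 77862830 to 77952785, plus strand, GRCh38), had the deepest fall at 6 of the 8 times, and MRPS31 after 5 and 7 min. With the GC curve removed, MRPS9 fell more than MRPS31 after 5 min (-0.31 and -0.25) and more than MRPL1 after 60 min (-0.73 and -0.56). The level of MRPL1 in Ctrl ran from 15.6 through a median of 16.2 to 19.1 CPM. In the 5 libraries of hypg15 it was 6.90, 6.66, 7.89, 6.47 and 4.94 CPM. All 5 lay below every Ctrl library, and so did every library of the 6 shorter 9 g times. The log2 fold change was -0.58 ± 0.10 (SE) after 20 s (adjusted p = 0.0014), -1.08 ± 0.09 after 3 min and -1.34 ± 0.10 after 15 min (adjusted p = 9.1e-07). It was smallest after 7 min at -0.30 ± 0.09 (adjusted p = 0.035), whereas with the GC curve removed it was smallest after 5 min (-0.23). After 60 min MRPL1 ran from 7.63 through 8.99 to 13.6 CPM, against 12.9, 15.9 and 18.7 CPM in Ctrl60. The highest hypg60 library overlapped the lowest Ctrl60 library, with a log2 fold change of -0.77 ± 0.13.

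MRPS31, a mitochondria-specific protein of the small subunit head (ENSG00000102738, chromosome 13, 40729128 to 40771190, minus strand), ran from 13.3 through 14.3 to 15.4 CPM in Ctrl. In hypg15 its 5 libraries were at 6.95, 7.58, 9.57, 8.68 and 5.63 CPM, all below Ctrl. Its log2 fold change was -0.37 ± 0.07 after 20 s, -0.91 ± 0.11 after 15 min (adjusted p = 1.8e-05) and -0.73 ± 0.13 after 60 min. The libraries overlapped Ctrl after 5 min and overlapped Ctrl60 after 60 min.

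MRPS9, the counterpart of bacterial S9 near the tRNA sites of the small subunit, ran from 33.1 through 36.2 to 39.7 CPM in Ctrl and was at 22.8, 18.6, 26.9, 25.6 and 14.9 CPM in hypg15. After 60 min it ran from 17.3 through 23.4 to 29.3 CPM, against 34.8, 39.0 and 40.9 CPM in Ctrl60. Neither 9 g group overlapped its control. The log2 fold changes were -0.74 ± 0.12 after 15 min (adjusted p = 0.00013) and -0.73 ± 0.10 after 60 min (adjusted p = 0.00012).

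MRPL50, a mitochondria-specific protein of the large subunit, fell in 5 of the 8 comparisons, by a log2 fold change of -1.0 ± 0.15 after 15 min. Its levels there were 2.83, 3.96, 3.71, 3.31 and 2.08 CPM, against 5.47 to 7.84 CPM in Ctrl. MRPS36 carries a small subunit name but is known as a subunit of the 2-oxoglutarate dehydrogenase complex (KGD4). It fell in 7 of the 8 comparisons, down to -0.72 ± 0.10 after 60 min, where it ran from 5.75 through 6.46 to 8.23 CPM against 9.60, 10.4 and 12.2 CPM in Ctrl60. MRPS35, a small subunit protein specific to mitochondria, also fell in 7, with its deepest fall after 15 min (-0.75 ± 0.08), or -0.37 with the GC curve removed, where 60 min was at -0.39. In the fit with 3 surrogate variables it was called at no 9 g time and turned to 0.036 after 7 min and 0.029 after 9 min. After removal of the GC curve, MRPS36 was called after 7 and 60 min alone, at -0.39 after 60 min and -0.04 after 15 min, and MRPL50 after 15 min (-0.40) and 60 min.

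Of the 7 members at the polypeptide exit and membrane attachment, 5 fell after 75 s, 3 min, 9 min, 15 min and 60 min. At these times, 46.8% to 54.5% of all members and 8.34% to 27.9% of all genes fell. MRPL44 fell in 7 of the 8 comparisons, by -0.47 ± 0.09 after 60 min. MRPL45, the receptor that attaches the ribosome to the inner membrane, fell by -0.27 ± 0.06 after 60 min (log2). In the fit with 3 surrogate variables, MRPL44 kept its call after 5 and 60 min and MRPL45 at no time, and in hypg15 they turned to 0.062 and 0.0011. MRPL23, at the tunnel exit, was called in none and lay between -0.12 and 0.10, though it fell after 9 min (-0.21) with the GC curve removed. Of the 4 tested members of the stalk that recruits translation factors, MRPL10 and MRPL12 were called at no 9 g time, MRPL11 fell after 7 and 9 min, and MRPL54 after 9 and 60 min. Once the GC curve was removed, MRPL12 fell after 75 s and 3, 5, 15 and 60 min (-0.30 after 60 min), and MRPL54 at every time from 75 s on.

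3 members rose at 9 g. MRPL38, a mitochondria-specific protein of the central protuberance (ENSG00000204316, chromosome 17, 75898644 to 75905093, minus strand), rose after 75 s, 3 min, 9 min, 15 min and 60 min. It ran from 6.20 through 7.21 to 8.29 CPM in Ctrl and was at 11.7, 10.6, 9.83, 10.6 and 13.2 CPM in hypg15, with no overlap and a log2 fold change of 0.62 ± 0.10 (adjusted p = 0.00016). After 60 min it ran from 10.1 through 11.0 to 12.1 CPM against 7.14, 7.65 and 8.52 CPM in Ctrl60, a log2 fold change of 0.51 ± 0.09. Removal of the GC curve lost the calls of MRPL38 after 75 s and 3 min and brought hypg15 to 0.32, and with 3 surrogate variables it was called at no time (0.31 in hypg15). MRPL46, also of the central protuberance, rose after 7 min (0.25 ± 0.06), 9 min (0.20 ± 0.06) and 15 min (0.20 ± 0.07), and of these the 7 min libraries did not overlap Ctrl. After removal of the GC curve MRPL46 was up at 7 of the 8 times, all but 5 min, with 0.36 after 20 s and 0.64 after 15 min, and with 3 surrogate variables at none. MRPS24, the counterpart of bacterial S3 at the mRNA entry, rose after 15 min (0.43 ± 0.14, adjusted p = 0.019). Its 5 libraries at 2.68, 2.81, 2.50, 1.88 and 3.16 CPM overlapped the 1.54 to 2.35 CPM of Ctrl.

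**Figure D3:**
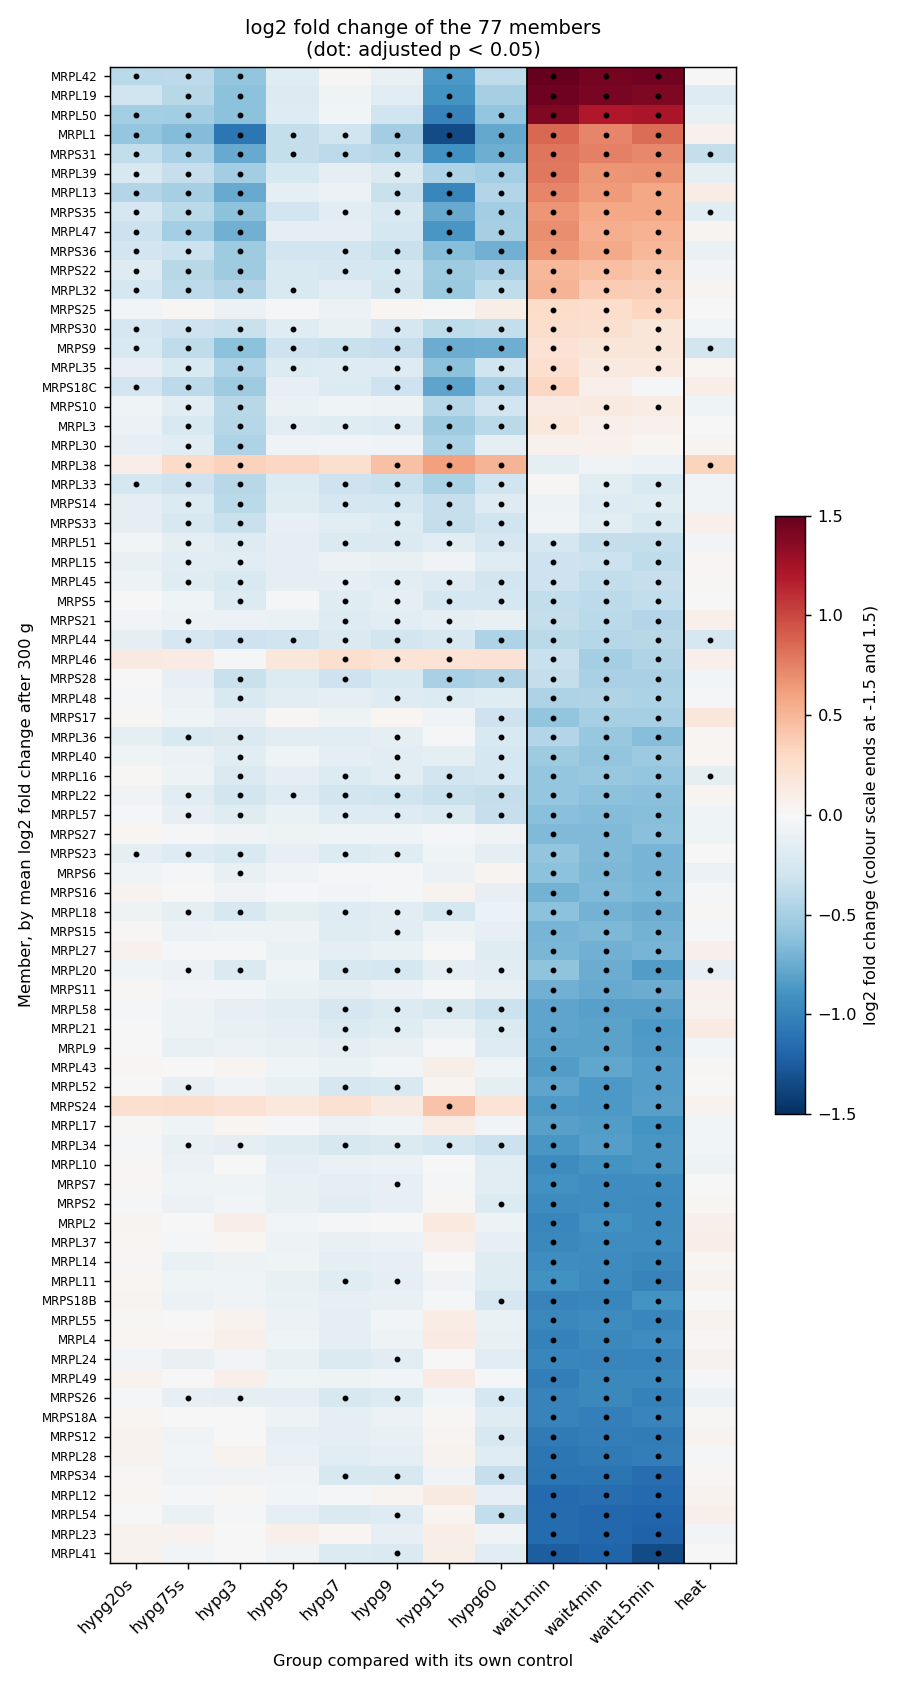
log2 fold change (colour, blue lower and red higher) of each of the 77 members (y axis, ordered by the mean after 300 g) in the 12 treated groups against their own controls (x axis), with a dot at adjusted p under 0.05. The members at the top are blue at 9 g and red after 300 g, those at the bottom are nearly white at 9 g and dark blue after 300 g, and MRPL38 is red at 9 g and with heat.

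The 9 g times were also compared with one another. hypg9 had 2 members lower than hypg75s and 0 higher, MRPL20 (log2 fold change -0.17 ± 0.04) and MRPS34 (-0.19 ± 0.04), against 3.24% and 1.76% of all genes. With 3 surrogate variables the direction turned, with 8 members higher and 1 lower, against 6.4% and 5.75% of all genes. hypg15, compared with hypg3, whose library numbers lie in the same range, had 0 members called by edgeR and by DESeq2, with 12 and 11 at an unadjusted p under 0.05, against 2.54% of all genes called, 1.70% higher and 0.842% lower. hypg60 had 1 member lower than hypg9, MRPS36 (-0.36 ± 0.09), against 0.955% of all genes lower and 4.11% higher (5.07% in either direction). That call was lost on removal of the GC curve (-0.185), with no filter and with total counts, and the joint model called 0 members in hypg9 against hypg75s. Without surrogate variables or removal of the GC curve, the shares of members called between times are near or below those of all genes.

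After 5 min at 300 g, most members were called and the changes were larger than at 9 g. At wait1min, 53 of the 77 fell and 18 rose, compared with 40.1% and 41.4% of all genes tested. At wait4min, 56 fell and 18 rose, against 40.6% and 41.7%. At wait15min, 56 fell and 17 rose, against 40.5% and 41.8%. The median log2 fold change of the members was -0.60, -0.65 and -0.63, beside 0.01 for all genes at each wait. The summed level was 4490 ± 82.4 CPM in Ctrl300g, 3286 ± 212 CPM at wait1min, 3217 ± 36.3 CPM at wait4min and 3182 ± 113 CPM at wait15min (SD, n = 4). The summed level of the 9 T cell markers also fell, from 3168 to 3276 CPM in Ctrl300g to between 2037 and 2232 CPM over the 3 waits, as did that of the 4 B cell markers, from 51.9 to 53.8 CPM to between 24.2 and 29.0 CPM, and their part in the result was not tested. With scaling by total counts alone, the median of all genes itself rose to 0.25, 0.27 and 0.27, and the members minus all genes gave -0.60, -0.66 and -0.65, beside -0.60, -0.66 and -0.64 with TMM.

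53 members (68.8%) were downregulated and 16 (20.8%) upregulated at all 3 waits, compared with 38.6% and 39.2% of the 16786 genes tested at all 3. The upregulated ones were MRPL1, MRPL13, MRPL19, MRPL32, MRPL35, MRPL39, MRPL42, MRPL47, MRPL50, MRPS22, MRPS25, MRPS30, MRPS31, MRPS35, MRPS36 and MRPS9. They differed from the falling members in base composition. GC content of the longest transcript had a median of 38.7% (33.5% to 47.2%) in the 16 and of 51.5% (40.2% to 71.9%) in the 53. When the GC curve was removed, the split at the 3 waits changed to 2 up and 69 down, 3 up and 72 down, and 3 up and 71 down, against 30.8% up and 44.2% down, 31.6% and 44.7%, and 31.5% and 44.4% of all genes in that fit. Of the 16 upregulated members, 1, 2 and 2 then stayed up and 11, 12 and 11 were down, whereas 51, 53 and 53 of the 53 stayed down. MRPS25 stayed up at all 3 waits and MRPL42 at the last 2.

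MRPL42, a mitochondria-specific protein of the large subunit (ENSG00000198015, chromosome 12, 93467514 to 93516214, plus strand), had the largest rise after 300 g. It was at 46.5, 34.6, 40.8 and 36.2 CPM in Ctrl300g and at 110, 123, 109 and 120 CPM at wait1min. No library overlapped, and the log2 fold change was 1.51 ± 0.07 at wait1min (adjusted p = 1.4e-12), 1.44 ± 0.06 at wait4min and 1.45 ± 0.06 at wait15min. These were, after removal of the GC curve, 0.10, 0.09 and 0.09, of which the last 2 passed the test. MRPL19, a large subunit protein facing the subunit interface, went from 34.7, 27.5, 31.4 and 30.2 CPM to 82.5, 94.7, 83.8 and 87.0 CPM, a log2 fold change of 1.46 ± 0.06 at wait1min. It lost the call at all 3 waits once the GC curve was removed, with 0.030, 0.057 and 0.029. MRPL50 went from 9.74, 6.79, 8.45 and 6.30 CPM to 18.7, 25.4, 20.2 and 19.9 CPM, a log2 fold change of 1.39 ± 0.11, which turned to -0.39 with the GC curve removed.

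MRPL1 and MRPS31, which fell at every 9 g time, rose after 300 g. MRPL1 was at 18.0, 13.6, 14.7 and 12.7 CPM in Ctrl300g and at 24.6, 33.3, 26.3 and 25.2 CPM at wait1min, with log2 fold changes of 0.86 ± 0.10, 0.74 ± 0.07 and 0.84 ± 0.08 at the 3 waits. MRPS31 went from 14.5, 12.7, 15.0 and 13.7 CPM to 23.5, 27.4, 23.1 and 26.3 CPM at wait1min, with 0.81 ± 0.07, 0.76 ± 0.06 and 0.72 ± 0.07. Neither gene overlapped its control at any wait. With the GC curve removed, both were lower than the control instead, with -0.47 for MRPL1 and -0.42 for MRPS31 at wait1min. At 9 g both stayed below 0 in that fit. MRPL1 was called at all 8 times there (-0.87 after 15 min and -0.23 after 5 min) and MRPS31 at 7 (-0.47 after 15 min), losing the call after 20 s (-0.14).

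MRPL41, a mitochondria-specific protein of the large subunit and the member with the highest GC content (71.9%; ENSG00000182154, chromosome 9, 137551879 to 137552555, plus strand), had the deepest fall. It was at 38.0, 42.7, 46.9 and 51.0 CPM in Ctrl300g, at 19.6, 20.7, 19.4 and 17.7 CPM at wait1min and at 18.7, 19.2, 18.8 and 15.0 CPM at wait15min. All libraries after 300 g lay below all controls, with log2 fold changes of -1.24 ± 0.08 (adjusted p = 4.5e-11), -1.20 ± 0.07 and -1.34 ± 0.08. It still fell after removal of the GC curve, with -0.71, -0.73 and -0.87.

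The 4 tested stalk members all fell after 300 g, with a median of -1.05 at wait1min. At the 3 waits, 68.8% to 72.7% of all members and 40.1% to 40.6% of all genes fell. MRPL12, the stalk protein that binds translation factors, went from 46.4, 52.3, 50.9 and 50.6 CPM to 20.9, 25.7, 22.7 and 21.5 CPM, a log2 fold change of -1.17 ± 0.06. MRPL54 went from 37.5, 39.4, 38.8 and 39.7 CPM to 16.7, 20.7, 16.8 and 17.2 CPM, a log2 fold change of -1.15 ± 0.06. Both were at -0.67 at wait1min with the GC curve removed. Of the 8 members of the central protuberance, 7 fell at each wait, beside the same 68.8% to 72.7% of all members. The eighth was MRPL38, at 6.16, 7.33, 7.87 and 6.82 CPM in Ctrl300g and 6.58, 6.33, 6.97 and 6.44 CPM at wait1min, with a log2 fold change of -0.14 ± 0.08 that did not pass the test. It was higher at each wait once the GC curve was removed, by 0.36 to 0.40. MRPS12, the counterpart of bacterial S12 at the decoding centre, fell by 1.06, 1.04 and 1.05 (log2) at the 3 waits, or by 0.63, 0.64 and 0.65 with the GC curve removed.

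**Figure D4:**
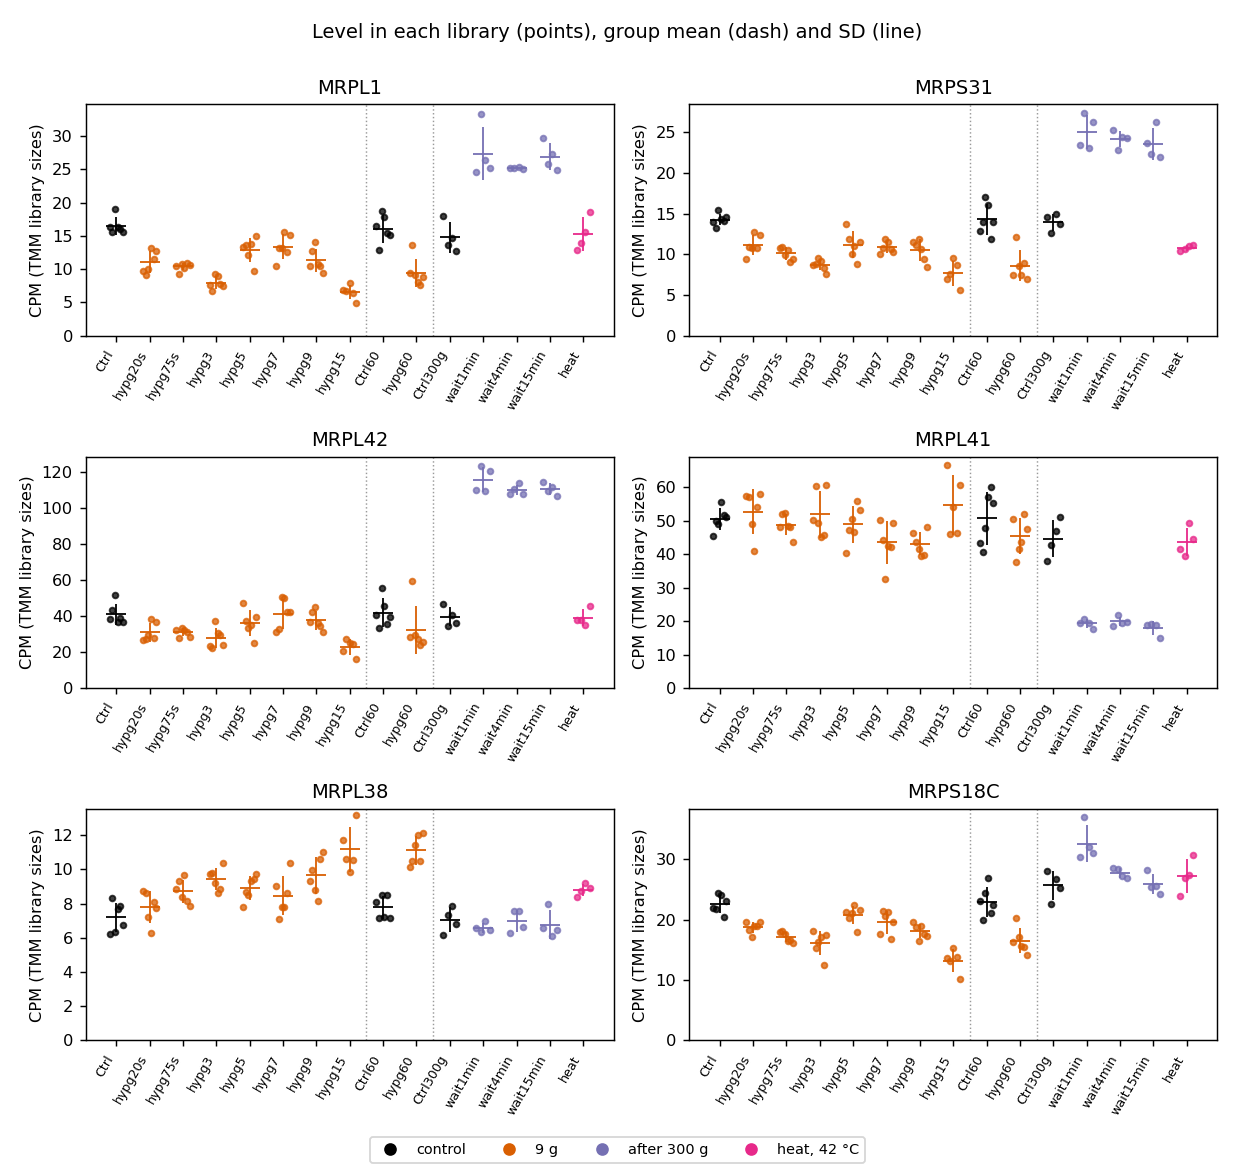
Level in CPM (y axes, starting at 0) of 6 members in each library of the 15 groups (x axes), points for libraries, dashes for group means and lines for the SD, with dotted lines between sets with different controls. MRPL1 and MRPS31 are below their controls at 9 g and above them after 300 g, MRPL42 reaches 123 CPM at wait1min, and MRPL41 drops to between 15.0 and 21.9 CPM after 300 g.

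The 3 human counterparts of bacterial S18 are paralogs. MRPS18A was called at no 9 g time and was lower at each wait, with log2 fold changes of -1.0 ± 0.04, -1.02 ± 0.04 and -0.99 ± 0.04. MRPS18B was called at 9 g after 60 min (-0.25 ± 0.07) and in no other comparison there, and changed after 300 g by -1.0 ± 0.04, -0.97 ± 0.04 and -0.90 ± 0.04. MRPS18C fell in 6 of the 8 comparisons at 9 g, from 20.5 to 24.5 CPM in Ctrl to 13.7, 13.2, 15.3, 13.7 and 10.2 CPM in hypg15 (log2 fold change -0.79 ± 0.09, adjusted p = 1.1e-05). After 300 g it was at 28.1, 22.6, 26.7 and 25.2 CPM in Ctrl300g and at 30.4, 37.0, 32.0 and 31.0 CPM at wait1min, a rise of 0.31 ± 0.07 (adjusted p = 0.00048). It was back within the control range at wait15min (28.1, 25.4, 25.6 and 24.3 CPM). The direct comparison of wait15min with wait1min called MRPS18C lower by 0.33 ± 0.06 on the log2 scale (adjusted p = 0.014), and it was the 1 member called there, against 0.138% of all genes lower and 0.0115% higher. It lost this call on removal of the GC curve (-0.28, adjusted p = 0.065 by edgeR). With the GC curve removed, MRPS18C was lower than Ctrl300g at all 3 waits (-1.04, -1.21 and -1.32). MRPS18A and MRPS18B were then also lower, by a log2 fold change of -0.59 and -0.84 at wait1min. At 9 g that fit called MRPS18A lower after 7, 9, 15 and 60 min, MRPS18B after 75 s, 9 min and 60 min, and MRPS18C after 9, 15 and 60 min alone, with -0.31 for MRPS18C in hypg15. In hypg60 the values were -0.33 for MRPS18A, -0.35 for MRPS18B and -0.25 for MRPS18C.

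Fold changes at 9 g and after 300 g, which share no controls, were negatively correlated across members, while the median of the members was below 0 in each of these comparisons. Over the 77 members, the log2 fold change at wait1min had a Spearman correlation of -0.85 with that of hypg3, -0.81 with that of hypg15 and -0.56 with that of hypg60. Over all genes tested in both, it was -0.48 for hypg15 and -0.12 for hypg60. With the GC curve removed, the values over members were -0.59 and -0.45. These correlations are across genes of the same libraries and are given as a description. Of the 30 members that fell in 5 or more 9 g comparisons, 13 (43.3%) rose at all 3 waits and 12 (40.0%) fell at all 3, against 53.9% and 31.7% of the 1045 genes with the same pattern at 9 g. Of the 16 that rose at all 3 waits, 13 (81.2%) had fallen in 5 or more at 9 g, against 9.94% of the 5665 genes that rose at all 3 waits, and MRPS25 was the 1 that fell at no 9 g time. Both patterns changed with the GC curve removed. In that fit 2 members rose at all 3 waits, and 0 of them fell in 5 or more at 9 g, against 7.27% of all genes. Of the 36 members that then fell in 5 or more, 0 rose and 32 (88.9%) fell at all 3 waits. Among all genes with that pattern at 9 g, 17.6% rose and 68.4% fell.

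GC content moved with these values in members and in all genes. The Spearman correlation of log2 fold change with GC content over members was 0.67 after 20 s, 0.76 after 3 min, 0.04 after 7 min, 0.73 after 15 min and 0.48 after 60 min at 9 g, -0.83 at wait1min and 0.21 with heat. Over all genes it was 0.59, 0.67, 0.10, 0.67, 0.39, -0.69 and 0.16. In the third of members with the lowest GC content, 23 of 26 fell and 1 rose in hypg15, and 5 fell and 16 rose at wait1min. Of all genes in that range of GC content, 66.3% fell and 3.22% rose in hypg15, and 5.87% fell and 84.1% rose at wait1min. In the third with the highest GC content, 2 of 26 fell and 1 rose in hypg15, and 25 fell and 0 rose at wait1min, while of all genes in that range 2.49% fell and 47.9% rose in hypg15, and 68.6% fell and 12.3% rose at wait1min. Members that fell in 5 or more 9 g comparisons had a median GC content of 41.9%, against 53.0% in those that fell in none. In the fit with the GC curve removed, 5 members were down after 20 s (4.23% of all genes), 41 after 75 s (13.9%), 33 after 3 min (15.1%), 30 after 5 min (7.81%), 44 after 7 min (13.7%), 50 after 9 min (18.8%), 40 after 15 min (21.5%) and 52 after 60 min (25.5%), and 8 were up after 15 min (16.6% of all genes) against 0 to 2 at the other times. The part of GC content in these results was not tested beyond that.

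**Figure D5:**
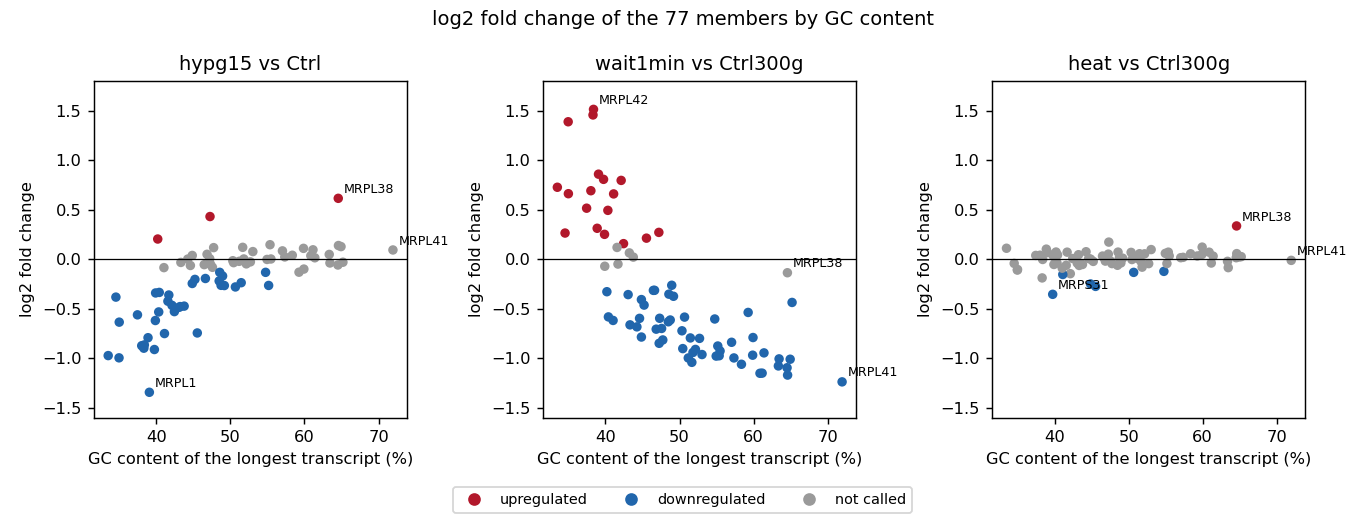
log2 fold change (y axes) of the 77 members against GC content of the longest transcript in percent (x axes) for hypg15, wait1min and heat, with red for upregulated, blue for downregulated and grey for not called. The points rise with GC content in hypg15, fall with it at wait1min and stay near 0 with heat.

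Heat for 5 min at 42 °C changed few members. 6 fell (7.79%) and 1 rose, compared with 10.2% and 10.6% of all genes (20.8% in either direction), and the median log2 fold change was 0.01. Those that fell were MRPS31 (-0.35 ± 0.07), MRPS9 (-0.27 ± 0.06), MRPL44 (-0.25 ± 0.04), MRPS35, MRPL16 and MRPL20. MRPS31 was at 10.4, 10.7, 11.0 and 11.1 CPM, below the 12.7 CPM of the lowest Ctrl300g library. MRPL38 rose, with 8.36, 8.76, 9.21 and 8.92 CPM above the 7.87 CPM of the highest control and a log2 fold change of 0.34 ± 0.08 (adjusted p = 0.0074). The split of 1 up and 6 down became 3 up and 3 down with total counts alone and 1 up and 25 down with the exon length curve removed. Without the Ctrl300g library numbered 51, 4 members were called.

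5 mitochondrial ribosomal proteins have names outside the rule. Their values are from the fit without removal of the GC curve. CHCHD1, of the small subunit, fell in 7 of the 8 comparisons at 9 g, by 0.44 ± 0.09 (log2) after 60 min. PTCD3 fell after 20 s, 75 s, 3 min and 15 min and rose after 300 g by 0.50 ± 0.04 at wait1min. DAP3, a GTP-binding small subunit protein, fell after 300 g (-0.51 ± 0.04 at wait1min), as did GADD45GIP1 (-1.15 ± 0.08) and AURKAIP1 (-1.18 ± 0.05). GADD45GIP1 rose in hypg15 (0.21 ± 0.06).

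Other nuclear genes of mitochondrial gene expression are read against 25.4% of all genes up and 27.9% down in hypg15, and 41.4% up and 40.1% down at wait1min. Values of these genes and of those in the next paragraph are from the fit without removal of the GC curve. The part of GC content in them was not tested. Of 25 mitochondrial ribosome assembly genes, 6 rose and 17 fell at wait1min, with METTL15, a methyltransferase for small subunit ribosomal RNA, up by 2.23 ± 0.07 and GTPBP10, a GTPase of large subunit assembly, up by 1.97 ± 0.07 (log2). In hypg15, 4 rose and 6 fell, with GTPBP10 at -0.86 ± 0.16. Of 18 translation factors, 10 rose and 6 fell at wait1min, led by GUF1 (1.67 ± 0.06) and MTIF2 (1.53 ± 0.07), while in hypg15 2 rose and 9 fell, with MTIF3 at -0.74 ± 0.14. Of 22 mitochondrial aminoacyl-tRNA synthetases, 4 rose and 16 fell at wait1min, and 5 rose and 7 fell in hypg15. PARS2, the prolyl-tRNA synthetase, rose at all 8 times at 9 g (0.89 ± 0.10 after 60 min) and fell after 300 g (-0.95 ± 0.08 at wait1min). TFAM, which packages mitochondrial DNA and starts its transcription, fell at 9 g in 6 of the 8 comparisons (-1.06 ± 0.16 in hypg15) and rose after 300 g (2.08 ± 0.08 at wait1min). GABPA, the DNA-binding subunit of GABP, fell in 3 of the 8 (-0.76 ± 0.15 in hypg15) and rose by 2.38 ± 0.07 at wait1min.

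The mitochondrial ribosome translates 13 messenger RNAs made in mitochondria. At 9 g, 5 of them rose after 20 s, 11 after 3 min, 13 after 15 min and 12 after 60 min. Shares of all genes that rose at these times were 6.66%, 16.9%, 25.4% and 17.1%. 0 of the 13 fell in any of the 8 comparisons, where 1.69% to 27.9% of all genes fell. The 13 had a median log2 fold change of 0.71 in hypg15 and 0.94 in hypg60. At wait1min 5 rose and 3 fell, against 41.4% and 40.1% of all genes, with a median of -0.01. With heat 9 rose and 1 fell, against 10.6% and 10.2% of all genes. Of the 82 cytosolic ribosomal protein genes, most of those called were lower, with 43 down and 2 up in hypg15, 49 down and 1 up in hypg60, and 70 down and 6 up at wait1min. In the same order, 27.9%, 13.0% and 40.1% of all genes were down, and 25.4%, 17.1% and 41.4% were up. Of the 2 mitochondrial ribosomal RNAs, which the library protocol depletes, MT-RNR1 and MT-RNR2 were lower after 9 min (-2.83 ± 0.92 and -3.14 ± 0.92), MT-RNR2 was higher at wait4min (1.63 ± 0.57) and wait15min (1.77 ± 0.38), and neither was called in the other comparisons with a control. Their levels varied widely within groups, with MT-RNR1 at 32.4 ± 41.0 CPM in Ctrl (SD, n = 6).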

How the data were processed

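RNA of 80 Jurkat libraries was sequenced after ribosomal RNA depletion. The authors deposited raw read counts per gene in 1 table, with exon length in bases. Per the labels, reads were trimmed with Trim Galore 0.6.5, aligned to hg38 with STAR 2.7.3a and counted with featureCounts 2.0.1, and the file header names featureCounts 2.0.3 and Ensembl release 104. 1 gene record broken over 3 lines was left out, as was library 75. Groups followed the sample titles. The column names of Ctrl60 mention HEPES and those of hypg60 do not, and the names of wait1min and wait4min use other times than the titles.

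For each comparison, 2 groups were fitted in R 4.3.3 by edgeR's quasi-likelihood method (version 4.0.16), with TMM factors, filterByExpr at a minimum count of 10 and Benjamini-Hochberg adjustment over all genes tested, after a test on simulated data. The standard error is the absolute log2 fold change over the square root of F. GC content is that of the longest transcript in GENCODE release 29. Shares and correlations came from Python 3.11.15 with scipy 1.17.1 and pandas 2.3.3. Alternatives were RLE size factors, total counts, no filter, DESeq2 1.42.0, a joint model of all groups, lowess curves (span 0.3) over GC content or exon length, 3 surrogate variables (sva 3.50.0, 9 g experiment), library 75 kept, and leaving out each library of hypg15 against Ctrl, of the waits and of heat.

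The members and lists were chosen with earlier results of these data known. Named members are the 2 called with the largest rise and the 2 with the largest fall per comparison, the extremes of the mean fold change at 9 g and after 300 g, the 5 called most often at 9 g, the 3 highest and 3 lowest per kilobase, those next to the count minimum, and MRPS18A, MRPS18B, MRPS18C, MRPL12 and MRPS12. Among the members called equally often at 9 g, ties were settled by the mean absolute log2 fold change. From other lists, at most the 2 called genes with the largest mean change were eligible and some of these are described, besides the 5 mitochondrial ribosomal proteins under other names. MRPL10, MRPL11, MRPL20, MRPL44, MRPL45, MRPL16 and the members listed by pattern were named after their values were seen.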

Additional observations from a re-analysis of the deposited data

Results flagged for a closer look

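In 6 of 105 groups of libraries examined (summed level and levels of the plotted members), 1 library stood apart from the rest, where chance flags about 5 percent of groups. The lowest Ctrl60 library had a summed level of 4603 CPM over the members, and the lowest wait15min library 3015 CPM. MRPL1 was apart in its highest Ctrl library at 19.1 CPM and in its highest hypg60 library at 13.6 CPM. MRPL42 reached 59.6 CPM in 1 hypg60 library. MRPL41 was at 15.0 CPM in 1 wait15min library.

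4 members differed between times in a direct test with edgeR. MRPL20 (log2 fold change -0.17, adjusted p = 0.033) and MRPS34 (-0.19, adjusted p = 0.018) were lower in hypg9 than in hypg75s, with overlapping libraries. MRPS36 was lower in hypg60 than in hypg9 (-0.36, adjusted p = 0.038), and these times have different controls. MRPS18C was lower at wait15min than at wait1min (-0.33, adjusted p = 0.014), with no overlap, and lost the call when a curve over GC content was removed (-0.28), as did MRPS36 (-0.185).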

How the results depend on the processing

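The heat median, 0.01 as reported, lay between -0.086 and 0.038 and so has no set sign, while the medians of the other 11 treated groups against their controls stayed below 0 under the alternatives run. Of single named members, 26 values reversed, beside 2136 that stayed on their side of the threshold and 165 that lost the call. These counts pool all alternatives, including fits that leave out 1 library. With 3 surrogate variables alone, 6 values reversed, 69 lost the call and 25 stayed. With the GC curve removed, 20 reversed, 22 lost the call and 147 stayed. With the GC curve removed, the rise at wait1min, wait4min and wait15min turned to -0.47, -0.53 and -0.43 for MRPL1, -0.42, -0.42 and -0.45 for MRPS31, -0.39, -0.50 and -0.48 for MRPL50, -0.33, -0.37 and -0.37 for MRPS35, -1.12, -1.12 and -1.21 for MRPS36 and -0.070, -0.086 and -0.091 for MRPS9, and at wait1min to -1.04 for MRPS18C, while the fall of MRPS36 in hypg20s turned to 0.048. With 3 surrogate variables, hypg15 gave 0.062 for MRPL44, 0.0011 for MRPL45 and -0.021 for MRPL46, hypg9 gave 0.012 for MRPL41 and 0.029 for MRPS35, and hypg7 gave 0.036 for MRPS35. No paired analysis was possible because library numbers are serial and no number is shared between groups. With 3 surrogate variables the members called were 23 in hypg75s, 17 in hypg3, 9 in hypg7, 2 in hypg9, 6 in hypg15 and 16 in hypg60, 2 for hypg15 against hypg3, 9 for hypg60 against hypg9 and 9 for hypg9 against hypg75s, and the medians were -0.065 in hypg7, -0.045 in hypg9 and -0.10 in hypg60. With the GC curve removed, 6 were called in hypg20s, 30 in hypg5, 16 with heat, 7 for hypg60 against hypg9 and 0 for wait15min against wait1min. With the length curve removed, 26 were called with heat and 5 for hypg9 against hypg75s, and medians were -0.20 in hypg9, -0.72, -0.78 and -0.75 at the 3 waits and -0.086 with heat. The joint model called 8 in hypg20s, 19 with heat (median -0.060), 1 for hypg15 against hypg3, 5 for hypg60 against hypg9, 0 for hypg9 against hypg75s and 2 for wait15min against wait1min. With DESeq2, 18 were called in hypg5, 2 for hypg60 against hypg9 and 4 for hypg9 against hypg75s. With no filter, 2 were called in hypg5, 0 for hypg60 against hypg9 and 4 for wait15min against wait1min, and the wait4min median was -0.68. With total counts, medians were -0.13 in hypg9 and -0.35, -0.39 and -0.37 at the waits, 0 members were called for hypg60 against hypg9, and hypg5 split into 2 up and 8 down. With library 75 kept, 22 were called in hypg15 with a median of -0.22. Leaving out 1 library at a time gave 4 to 8 calls with heat (medians -0.02 to 0.03), 34 to 40 in hypg15 (-0.13 to -0.06), 70 to 72 at wait1min (-0.66 to -0.57), 73 to 75 at wait4min (-0.66 to -0.62) and 72 to 74 at wait15min (-0.66 to -0.59). Without library 77, hypg15 split into 8 up and 32 down. The cause of these shifts was not tested. Depth limits MRPS24 most.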
